A study of Mus musculus with 12 samples.

Results

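The hepcidins and the genes of iron transport were followed in the back skin of mice treated with a cactus cell extract, minoxidil or vehicle. The 10 genes were Hamp, Hamp2, Tfr2, Tfrc, Hfe2, Hfe, Slc40a1, Slc11a2, Bmp6 and Fth1, chosen with the ratios of these same contrasts known, and every probe whose gene name on the array equalled one of them was taken. All 10 genes were found, by 14 probes among 41174, and 27373 gene names were on the array in all. Because the genes were selected on these contrasts, their ratios are a description and no test was made of them as a group.

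The animals were male C57BL/6J mice, 8 weeks old when purchased, with shaved back skin that received 200 µL of a preparation daily from the day after shaving. The 3 preparations were 10% N-CE (the cell extract of the cactus Notocactus ottonis), 3% MXD (minoxidil, a drug used against hair loss) and VC (the vehicle, a mixture of propylene glycol, ethanol and water). Skin was sampled at 1W, 2W and 3W, and the RNA of the 6 mice of a group was pooled, so each of the 9 pools was 1 sample without biological replicates. The question was how the extract and MXD changed skin during hair growth. Treated and VC pools of the same week were hybridised together with exchanged dyes, which gave 2 arrays per comparison, 12 arrays and 6 comparisons. The SD printed after a mean ratio is over these 2 arrays (n = 2) and measures the technical spread only. MXD and N-CE of a week were read against 1 VC pool on 1 slide, so both comparisons of a week share their control, and week and slide cannot be told apart.

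Hepcidin is a small peptide hormone made mainly by the liver. It binds ferroportin, encoded by Slc40a1, the only known cellular iron exporter of mammals, and removes it from the cell surface, so iron stays inside cells. Mice carry a pair of hepcidin genes, and the peptide of Hamp, not that of Hamp2, is the one known to control body iron. Hamp is switched on by BMP ligands such as Bmp6, whose receptor complex includes hemojuvelin (Hfe2, named Hjv by RefSeq), with input from Hfe and the second transferrin receptor Tfr2, and by interleukin 6 through STAT3. Cells take up iron-loaded transferrin through Tfrc, move iron out of the endosome with Slc11a2, and store it in ferritin, of which Fth1 is the heavy chain.

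Each hepcidin gene was read by a single 60-base probe, and the sequences are shown because the probes are so alike. The Hamp probe lies at chr7:31727490-31727549 and the Hamp2 probe at chr7:31707520-31707579, both on the minus strand of mm9. With a shift of 1 base, 59 bases of the probes could be overlaid, of which 42 were shared (71.2%), the longest shared run being 14 bases. Capitals mark the 17 overlaid bases that differ.
Hamp: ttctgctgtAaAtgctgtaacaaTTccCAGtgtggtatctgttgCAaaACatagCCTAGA
Hamp2: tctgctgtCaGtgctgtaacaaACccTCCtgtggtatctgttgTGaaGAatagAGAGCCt
No other of the 41174 probes shared a run of 16 bases with either. Whether RNA of one gene bound to the probe of the other was not tested.

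A probe counted as called when its software P was below 0.01 on each of the 2 arrays, both ratios pointed one way, and the fold averaged over them exceeded 1.5 (up) or fell short of 0.75 (down). That P describes the reading of a spot and not the spread between mice. Over 84 readings (14 probes in 6 comparisons), 13 were called, 12 of them down and 1 up. MXD accounted for 9 of the 13 and N-CE for 4. Of the 10 genes, 7 were called at least once, while Tfrc, Slc11a2 and Bmp6 never were. In MXD 1W, 0 of the 14 probes were up and 3 down (Hamp, Hamp2, Hfe2), where 0.685% of all probes tested were up and 0.765% down. In N-CE 1W, 0 were up and 2 down (Hamp, Slc40a1), against 0.292% up and 1.49% down among all probes. In MXD 2W, 1 was up (Slc40a1) and 5 down (Hamp2, Tfr2, Hfe2, Hfe, Fth1), against 4.04% up and 5.82% down. In N-CE 2W none was called in either direction, with 0.0682% of all probes up and 0.0511% down. In MXD 3W none was called either, with 0.144% up and 0.161% down. In N-CE 3W, 0 were up and 2 down (Hamp, Hamp2), against 0.151% up and 0.139% down. Nothing is read from these shares about the 10 genes as a group, since the contrasts were used to choose them. The median log2 ratio of the measured probes was −0.16, 0.01, −0.19, 0.02, −0.10 and −0.15 in the same order, beside −0.00, 0.03, 0.05, 0.00, 0.00 and 0.00 for all probes well above background in both groups.

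**Figure D1:**
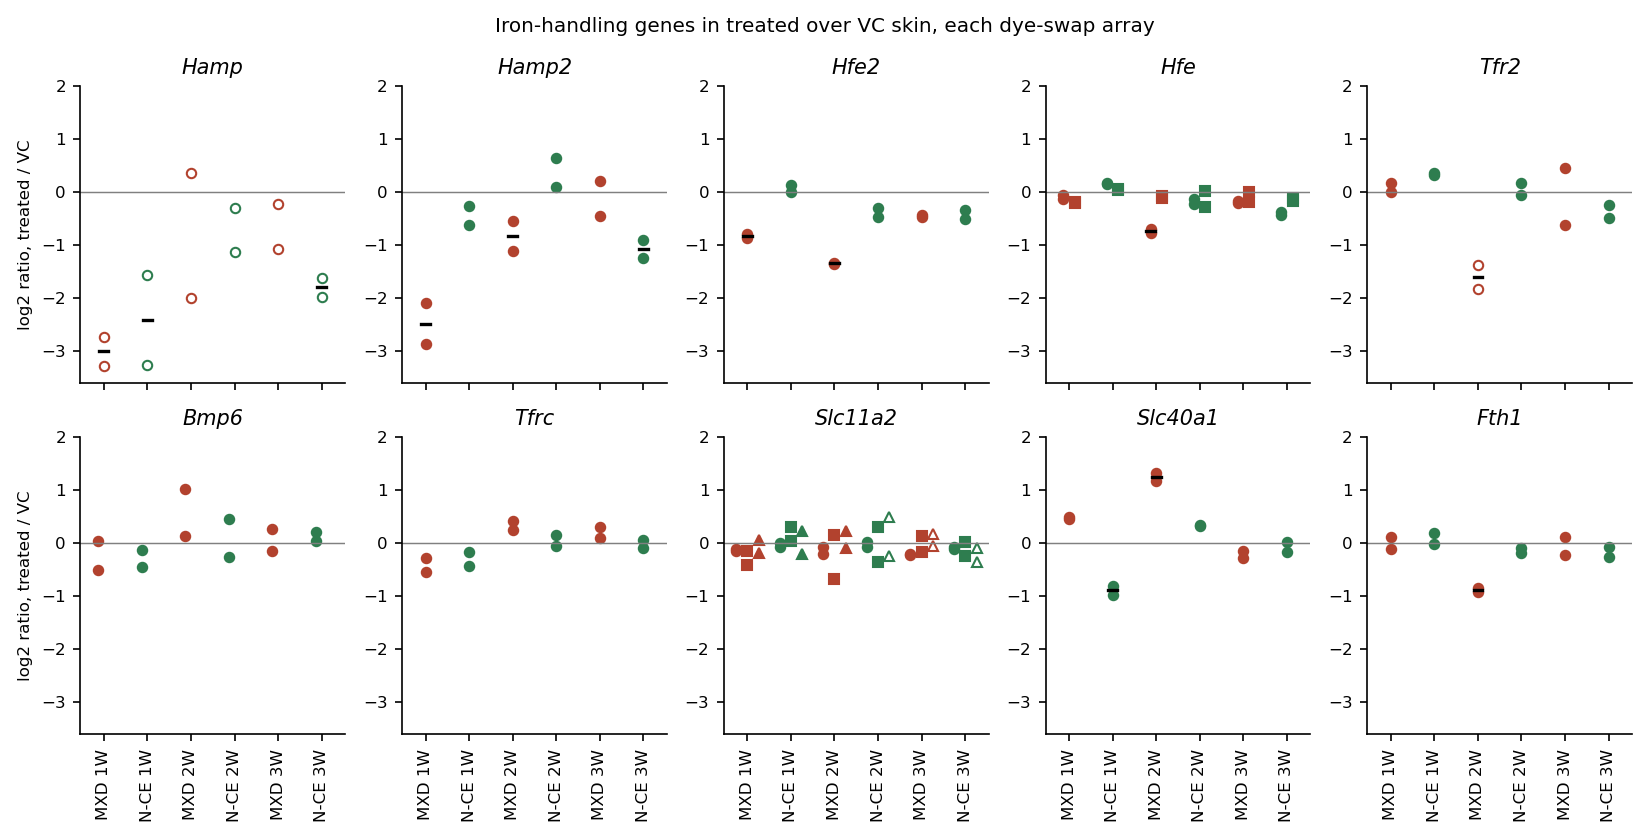
Log2 ratio of treated over VC (y axis) on each of the 2 dye-swap arrays (1 point per array) for every probe of the 10 genes in the 6 comparisons (x axis). Red is MXD and green is N-CE. Squares and triangles are further probes of a gene, open symbols mark a probe not well above background on all channels of a comparison, black bars mark the mean of a called probe, and the Bmp6 probe below background throughout is not drawn. Hamp2 was lowest in MXD 1W, and Slc40a1 was below 0 in N-CE 1W and above 0 in MXD 2W.

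Hamp2 gave the clearest hepcidin reading, being well above background in every channel. At 1W its processed signal (the software's background-subtracted, dye-normalised intensity) was 7147 to 7873 over the 4 VC channels with a median of 7336, 1701 and 1018 in MXD, and 5920 and 5149 in N-CE. Both MXD channels lay far below all VC channels, and both N-CE channels lay below VC by a smaller step. The log2 ratio was −2.09 and −2.87 on the 2 MXD arrays, a mean of −2.48 ± 0.56 (SD, n = 2) or 5.57-fold lower, which was called. For N-CE 1W it was −0.27 and −0.61, a mean of −0.44 ± 0.24, which was not called.

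At 2W the Hamp2 signal was 2253 to 3054 in VC, 1984 and 1409 in MXD, and 3527 and 3145 in N-CE. The MXD channels were below all VC channels and the N-CE channels above them. The ratio was −0.83 ± 0.41 for MXD (SD, n = 2), called down at 1.78-fold lower, and 0.37 ± 0.39 for N-CE, not called. At 3W the signal was 2181 to 2716 in VC, 2522 and 1979 in MXD, and 1193 and 1108 in N-CE. Here MXD overlapped VC, with a ratio of −0.12 ± 0.47, and N-CE was 2.11-fold lower (−1.08 ± 0.24, called). Hamp2 was therefore down in MXD at 1W and 2W and in N-CE at 3W.

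On a single-channel log2 level scale, which sets all arrays on 1 distribution, Hamp2 was highest in VC 1W (12.13 ± 0.13, SD over 4 channels) and next in N-CE 1W (11.77 ± 0.17, 2 channels). N-CE 2W (10.85), VC 3W (10.73), MXD 3W (10.64) and VC 2W (10.47) followed, each with a channel range that overlapped that of its neighbour. N-CE 3W (9.67), MXD 1W (9.67) and MXD 2W (9.61) were the lowest and overlapped as well. The level in MXD thus differed little between 1W and 2W, whereas that in VC was 12.13 at 1W and 10.47 at 2W, on different slides.

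Hamp itself was dim, and most of its values are bounds. Its processed signal at 1W was 92.4 to 122 in the 4 VC channels, all well above background, 15.7 and 12.6 in MXD, neither above background, and 31.4 and 10.2 in N-CE, of which 1 of 2 was above background. All 4 treated channels lay below all VC channels. In MXD 1W Hamp was called down and was at least 1.73-fold lower than VC, a bound that takes, on each array, the higher of the probe's own level and the lowest level that counts as well above background, here its own. It was not called where both groups had to be above background. In N-CE 1W it was also called down, at −1.56 and −3.26 on the 2 arrays (mean −2.41 ± 1.20). That size rests on how background was removed, since normexp correction gave −0.55.

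At 2W the VC signal of Hamp was 13.6 to 33.2, and 2 of 4 VC channels but none of the treated channels were well above background. The bounds came to 1.04-fold lower in MXD and 1.08-fold lower in N-CE, and neither was called. Each took in a VC channel not above background, and both treated pools overlapped VC in level. The 2 MXD arrays also pointed apart (0.37 and −2.00), so no direction is read at 2W. At 3W it was 41.6 to 56.5 in VC, 48.5 and 21.3 in MXD and 10.6 and 15.9 in N-CE. MXD 3W overlapped VC and was not called (−0.65 ± 0.60). N-CE 3W lay below all VC channels, was called down, and was at least 1.31-fold lower, although only 1 of the 2 VC channels on those arrays was well above background. Both hepcidin probes were thus called down in MXD 1W and N-CE 3W, Hamp alone in N-CE 1W, and Hamp2 alone in MXD 2W.

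**Figure D2:**
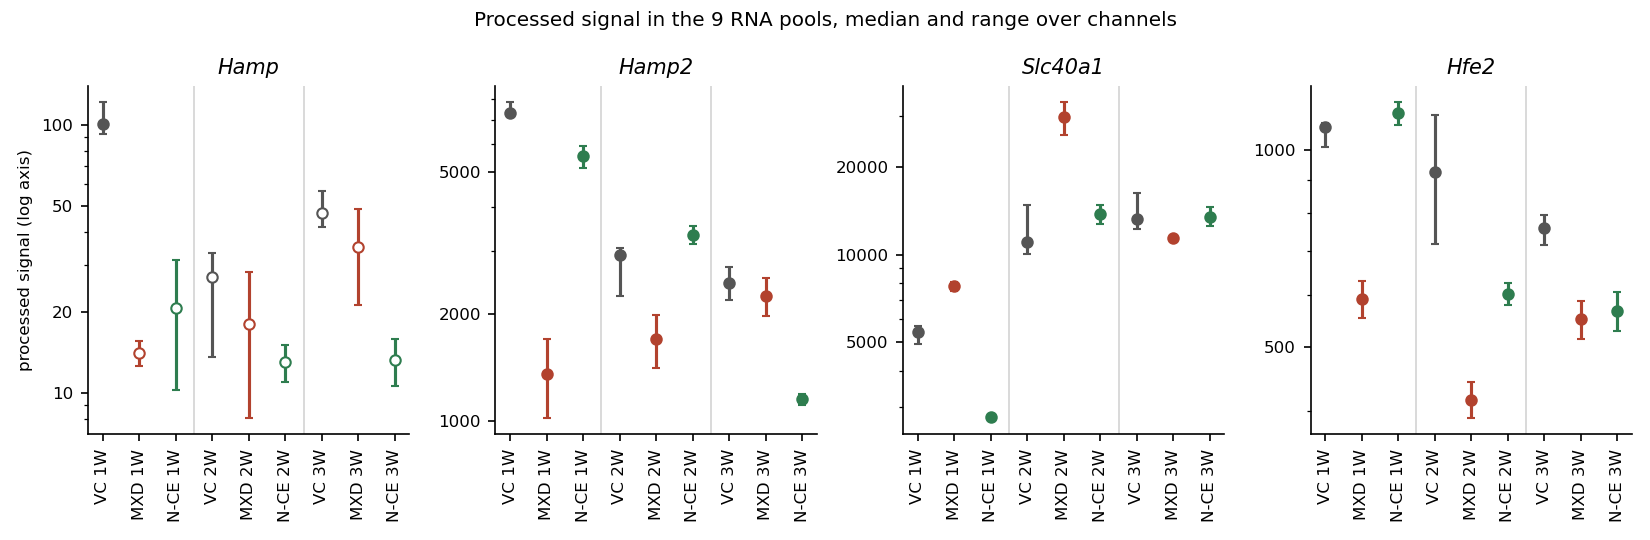
Processed signal (log axis) of Hamp, Hamp2, Slc40a1 and Hfe2 in the 9 pools (x axis), as the median with bars from the lowest to the highest channel (4 channels for VC, 2 for a treated pool). Open symbols mark pools in which not all channels were well above background, and vertical lines separate the weeks, which lie on different slides. Hamp2 in VC 1W had a median of 7336 and MXD 1W a median of 1359.6, and Slc40a1 in MXD 2W reached 33503.

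Liver and heart cells, the main known sources of Hamp, were looked for by their markers. Of 18 hepatocyte probes, 5 were well above background in both groups in MXD 1W. The hepatocyte probes of Apoa1, Apoa2, Ttr, Fga and Cyp3a11 were above background in none of the 24 channels. Those of Alb and Cyp2e1 and a probe of Tdo2 were above it in all 24, Tat in 20, Apoh in 17 and Ahsg in 13. Because the list was detected in part only, its summed signal does not show that liver cells were present. The summed hepatocyte signal was 2185 to 2465 in MXD 1W beside 3519 to 3846 in VC, with Cyp2e1 called down. It was 1730 to 2308 in MXD 2W beside 4662 to 6055 in VC, again with Cyp2e1 down, and 2045 to 2869 in N-CE 3W beside 3070 to 3798. In N-CE 1W it was 3652 to 4196 beside 2667 to 3200. The hepatocyte probes well above background in both groups had a median log2 ratio of −0.01 in MXD 1W, with 2 higher and 3 lower. Their median was −0.71 in MXD 2W, −0.33 in N-CE 3W and 0.38 in N-CE 1W. Of 15 probes of the heart muscle list, both of the myosin Myh6 were above background in no channel. Those of Nppa were above it in 0 and 5 of the 24. Both of Myl4 and a probe each of Nppb, Tnni3, Tnnt2 and Sln were above it in all 24. This list too was detected in part only, so its summed signal does not show that heart cells were present. In MXD 1W, 3 probes of the list (of Myl4 and Sln) were called up, at a summed signal of 16580 to 18836 beside 7290 to 8834 in VC. In MXD 2W 3 (of the same genes) were called down, at 2715 to 3299 beside 6444 to 7850. In N-CE 3W none was called, at 1941 to 2569 beside 2303 to 3184. In MXD 1W, 6 of 13 neutrophil and acute phase probes were called up, with a summed signal of 18720 to 25108 beside 4879 to 5747 in VC. Among all probes, 0.685% were up and 0.765% down in MXD 1W, and 4.04% up and 5.82% down in MXD 2W. The part of the cells named here in the hepcidin readings was not tested. In pooled whole skin, fewer cells of a type and less RNA per cell cannot be told apart, here and for every gene below.

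The promoters of the hepcidin genes are given as background on the pair. The calls of Hamp alone in N-CE 1W and of Hamp2 alone in MXD 2W do not show the genes moving apart. In MXD 2W Hamp was well above background in no treated channel. In N-CE 1W both genes lay below all VC channels. RefSeq promoter windows (GRCm38.p6) matched 7 of the 10 genes. The 250 bases before the start site are chr7:30944030-30944279 for Hamp and chr7:30924182-30924431 for Hamp2, both minus strand, and 227 of 247 aligned bases (91.9%) were identical. Capitals mark matches to the motifs searched on both strands.
Hamp: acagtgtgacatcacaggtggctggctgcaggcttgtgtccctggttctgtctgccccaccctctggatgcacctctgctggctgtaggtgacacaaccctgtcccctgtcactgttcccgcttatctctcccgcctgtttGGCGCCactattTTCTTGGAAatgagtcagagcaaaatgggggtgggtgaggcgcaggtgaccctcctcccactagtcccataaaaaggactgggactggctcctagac
Hamp2: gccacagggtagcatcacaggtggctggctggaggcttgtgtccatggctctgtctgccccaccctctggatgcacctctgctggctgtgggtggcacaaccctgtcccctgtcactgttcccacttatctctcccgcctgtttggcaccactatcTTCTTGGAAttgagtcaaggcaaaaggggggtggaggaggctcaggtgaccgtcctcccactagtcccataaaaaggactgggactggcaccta
GGCGCC, the core of the BMP-responsive element, was found in the Hamp window at position −109 from the start and not in that of Hamp2. The window of Tfrc also held it, at −89, as did 11.9% of the 32851 promoter windows. TTCNNNGAA, the STAT motif, was found in both hepcidin windows (−97 in Hamp, −94 in Hamp2), in none of the other 5 genes with a window, and in 8.30% of all windows. CACGTG, an E-box, was found in Bmp6 at −127, and 7.15% of all windows held it. These are matches of letters and show no binding.

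Other genes were compared with Hamp2 over 22716 named probes, each well above background in either group on both arrays of every comparison. Those whose log2 ratios over the 6 comparisons lay nearest, by mean absolute difference, were Awat2, a wax ester synthase (0.46), Pdk4, a pyruvate dehydrogenase kinase (0.49), Paqr7 (0.51), Prss55 (0.52) and Acox2 (0.53). None of these came close to the MXD 1W value of Hamp2 (−2.48), the nearest being Awat2 at −1.13. These 6 comparisons share 3 VC pools, so the distances describe these arrays only.

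Of the genes that act above hepcidin, Hfe2 was called down in 2 comparisons, Hfe and Tfr2 in 1 each, and Bmp6 in none. The hemojuvelin probe lies at chr3:96332113-96332172 (mm9). At 1W its signal was 1010 to 1099 in VC, 632 and 554 in MXD, and 1090 and 1182 in N-CE. MXD lay below all VC channels, and N-CE overlapped them. It was 1.78-fold lower in MXD 1W (−0.83 ± 0.05, called) and 0.07 ± 0.09 in N-CE 1W. At 2W it was 719 to 1127 in VC, 442 and 390 in MXD and 581 and 626 in N-CE, so that both treated pools lay below VC. MXD 2W was 2.53-fold lower (−1.34 ± 0.01, called), and N-CE 2W (−0.39 ± 0.12) was not called. At 3W the ratios were −0.46 ± 0.03 in MXD and −0.42 ± 0.11 in N-CE. Neither was called, although both mean folds (0.729 and 0.746) were below 0.75, because the software's P was not below 0.01 on both arrays.

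Hemojuvelin is known from skeletal muscle as well as liver, and the muscle markers moved with it. Of 34 skeletal muscle probes, 15 were called down in MXD 1W, 0 in N-CE 1W and 32 in MXD 2W, and 6 of 35 were in N-CE 2W, 9 of 35 in MXD 3W and 0 of 35 in N-CE 3W. Their median log2 ratio was −0.60, −0.10, −1.36, −0.48, −0.47 and −0.30 in that order, beside −0.83, 0.07, −1.34, −0.39, −0.46 and −0.42 for Hfe2. The Hfe2 ratio lay inside the range of the muscle probes in all 6 comparisons. Among all probes tested, 0.765%, 1.49%, 5.82%, 0.0511%, 0.161% and 0.139% were called down in the same order. The summed muscle signal was 514275 to 558241 in MXD 1W beside 870199 to 898098 in VC, and 371671 to 624476 in MXD 2W beside 1151890 to 1458630. Every muscle probe was well above background in at least 9 of the 24 channels. Among the gene names nearest to Hfe2 were Prkaa2 (mean absolute difference 0.03), Rpl3l (0.03), Ryr1 (0.04) and Capn3 (0.04), of which Rpl3l, Ryr1 and Capn3 are known muscle genes. The part of muscle in the Hfe2 reading was not tested.

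**Figure D3:**
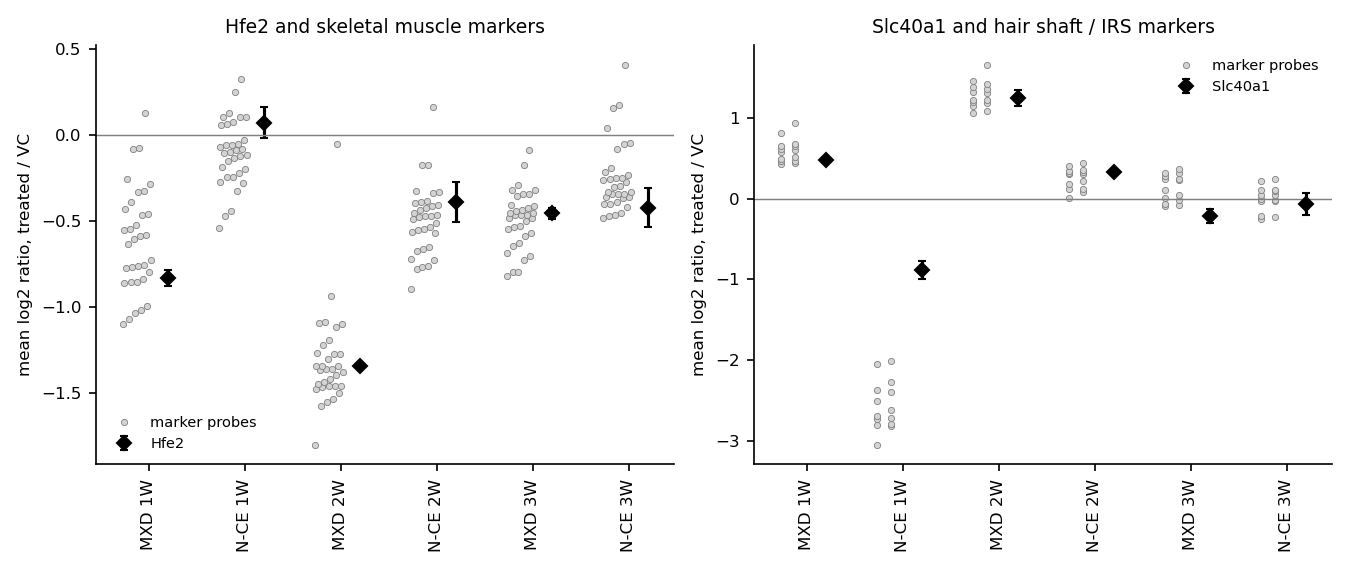
Mean log2 ratio of treated over VC (y axis) in the 6 comparisons (x axis) for Hfe2 with the skeletal muscle probes (left) and Slc40a1 with the hair shaft and inner root sheath (IRS) probes (right). Grey points are marker probes well above background in both groups, and black diamonds are the named gene with its SD over 2 arrays. Hfe2 lay within the muscle probes throughout, and Slc40a1 in N-CE 1W (−0.89) lay above the hair probes, whose median was −2.66.

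Hfe, an MHC class I-like protein whose loss causes hemochromatosis, had 2 probes that disagreed. The first, at chr13:23795922-23795981, read 2501 to 4554 in the VC channels and 2829 and 2021 in MXD at 2W, which was 1.66-fold lower on the same arrays (−0.73 ± 0.06, called). The signals of MXD and VC overlapped across the slide, while the ratio was close on both arrays (−0.69 and −0.77). The second, at chr13:23794468-23794527, which the array annotation places in a longer form of the transcript's end, was −0.10 ± 0.03 in that comparison. In the other 5 comparisons the first probe lay between −0.41 and 0.16, the second between −0.20 and 0.05, and none was called. The fall in MXD 2W thus holds for the first Hfe probe only.

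Tfr2, the transferrin receptor that senses iron in hepatocytes, was dim, with VC signals of 98.4 to 122 at 1W, 145 to 199 at 2W and 54.5 to 112 at 3W. In MXD 2W it read 77.1 and 42.8, below all VC channels. Its ratios there were −1.37 and −1.83 (mean −1.60 ± 0.33, called down), with MXD well above background on 1 of 2 arrays and a normexp value of −0.67. It was not called where both groups had to be above background on both arrays. The other 5 ratios were 0.09 ± 0.11 in MXD 1W, 0.33 ± 0.03 in N-CE 1W, 0.06 ± 0.17 in N-CE 2W, −0.09 ± 0.75 in MXD 3W and −0.37 ± 0.17 in N-CE 3W. None was called.

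Bmp6, the ligand that reports liver iron to hepatocytes, was read by a probe that was well above background everywhere and by another that was above it in no channel. The first was never called. In MXD 2W its signal was 1276 and 768 beside 379 to 695 in VC, and its ratios were 1.02 and 0.14 (mean 0.58 ± 0.62, a fold just under the threshold). Both MXD channels were above all VC channels, but the arrays differed widely. Elsewhere its mean ratio lay between −0.29 and 0.13.

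The uptake genes changed little. Tfrc, the receptor that brings transferrin-bound iron into dividing cells, was printed 10 times per array, and the copies on an array differed by an SD of 0.02 to 0.05. Its signal was 2263 to 2998 in VC, 2071 and 2169 in MXD and 1944 and 2018 in N-CE at 1W. Both treated pools were below VC there, with ratios of −0.40 ± 0.18 and −0.30 ± 0.19, and neither was called. At 2W it was 2634 to 4314 in VC, 5785 and 4550 in MXD and 2952 and 2786 in N-CE. MXD was above VC (0.33 ± 0.13, not called) and N-CE overlapped it (0.06 ± 0.15). At 3W the ratios were 0.20 ± 0.15 and −0.01 ± 0.11. The cell cycle probes had medians of 0.36, −1.04, 0.96, 0.26, 0.41 and 0.32 in the order MXD 1W, N-CE 1W, MXD 2W, N-CE 2W, MXD 3W and N-CE 3W. Tfrc and these medians lay on opposite sides of 0 in MXD 1W and, with Tfrc at −0.01, in N-CE 3W. In N-CE 1W both were below 0, at −0.30 for Tfrc and −1.04 for the median. Among the names nearest to Tfrc were Egfl6 (0.05), Stxbp4 (0.05), ENSMUST00000079057 (0.05) and NAP071090-1 (0.06).

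Slc11a2, the divalent metal transporter DMT1, had 3 probes, and none was called in any comparison. The probe for transcript variant 2 (chr15:100218333-100218392) lay between −0.21 and −0.02. That for variant 1 (chr15:100223347-100223406) lay between −0.27 and 0.17. The third (chr15:100240516-100240575) was near background, at signals of 15.8 to 72.0, and lay between −0.22 and 0.12. The probe of variant 2 also gave the largest mismatch between readings of 1 RNA, since the VC pool of 1W differed by −0.63 on the log2 level scale between the N-CE and the MXD arrays.

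Slc40a1, the exporter on which hepcidin acts, was down in N-CE at 1W and up in MXD at 2W. Its probe lies at chr1:45965255-45965314 (mm9, minus strand). At 1W the signal was 4930 to 5688 in VC, 8074 and 7524 in MXD and 2813 and 2738 in N-CE. The 3 pools did not overlap, with MXD above VC and N-CE below it. N-CE 1W was 1.85-fold lower (−0.81 and −0.96, mean −0.89 ± 0.11, called), and MXD 1W was 0.48 ± 0.04, a fold of 1.39 that was not called.

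At 2W the Slc40a1 signal was 10027 to 14842 in VC, 33503 and 25819 in MXD and 14772 and 12721 in N-CE. MXD lay above all VC channels and was 2.37-fold higher (1.17 and 1.32, mean 1.25 ± 0.10, called), while N-CE 2W was 0.34 ± 0.01 and not called. At 3W it was 12272 to 16331 in VC, and neither MXD (−0.21 ± 0.09) nor N-CE (−0.07 ± 0.14) was called. On the level scale MXD 2W was highest (13.65) and N-CE 1W lowest (10.85). VC stood at 11.72 at 1W, 12.47 at 2W and 13.26 at 3W, where week and slide cannot be told apart. Slc40a1 and Hamp2 lay on opposite sides of 0 in MXD 1W and MXD 2W and on the same side in the other 4 comparisons, above 0 in N-CE 2W and below it in N-CE 1W, MXD 3W and N-CE 3W.

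Markers of hair growth, melanocytes, dividing cells and macrophages, the last a main site of ferroportin, are set beside Slc40a1. The 14 hair shaft and inner root sheath probes had median ratios of 0.59, −2.66, 1.27, 0.31, 0.17 and 0.02 in the order MXD 1W, N-CE 1W, MXD 2W, N-CE 2W, MXD 3W and N-CE 3W. Slc40a1 stood at 0.48, −0.89, 1.25, 0.34, −0.21 and −0.07. Melanocyte and cell cycle probes also had medians below 0 in N-CE 1W (−1.91 and −1.04) and above it in MXD 2W (1.26 and 0.96). The pattern was thus not particular to hair. At 3W the medians of the hair, melanocyte and cell cycle lists lay above 0 and Slc40a1 below it. All 14 hair probes were called down in N-CE 1W, where their summed signal was 48191 to 62968 beside 353774 to 400832 in VC, and all 14 were up in MXD 2W, at 1277430 to 1484280 beside 536432 to 606075. The 16 macrophage probes had medians of 0.32, 0.27, −0.68, −0.24, −0.04 and −0.34, with 6 called down in MXD 2W at a summed signal of 47257 to 67672 beside 81231 to 123875. Slc40a1 and the macrophage median therefore lay on opposite sides of 0 in N-CE 1W, MXD 2W and N-CE 2W. Among all probes, 1.49% were called down in N-CE 1W, and 4.04% up and 5.82% down in MXD 2W. The part of any of these cells in the Slc40a1 reading was not tested.

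Fth1, the ferritin heavy chain that oxidises and stores iron, was down in MXD 2W only. Its probe (chr19:10059485-10059544) read 95914 to 199222 in VC and 105513 and 82906 in MXD at 2W, with ratios of −0.92 and −0.84 (mean −0.88 ± 0.05, 1.84-fold lower, called). The VC range was wide because the VC pool differed by −0.52 in level between the N-CE and the MXD arrays, and the MXD arrays taken alone gave the same ratio with either dye. The other 5 ratios lay between −0.17 and 0.09. Adipocyte and skin cell markers moved the same way in MXD 2W, with 9 of 15 adipocyte probes (median −0.76) and 9 of 21 keratinocyte and dermal fibroblast probes (median −0.66) called down. Macrophage probes (6 of 16 called down, median −0.68) and skeletal muscle probes (32 of 34, median −1.36) fell there too. The medians of the hair (1.27), melanocyte (1.26) and cell cycle (0.96) probes went the other way. Among all probes, 5.82% were called down in MXD 2W. The part of these cells was not tested.

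Further genes of iron biology were taken from 4 lists. Hepcidin regulators (25 genes, 44 probes) were called in MXD 2W alone, where 6 probes of 4 genes were up and 0 down. That comparison held the largest shares of calls among all probes, 4.04% up and 5.82% down. Smad7 and Smad6, the inhibitory SMADs that BMP signalling induces, stood at 1.16 ± 0.17 and 0.94 ± 0.15, and the ligand Bmp2 at 0.94 ± 0.13. Neo1, the hemojuvelin-binding receptor neogenin, was up on 3 of 4 probes (0.80 ± 0.01, 0.90 ± 0.03 and, near background, 1.25 ± 0.16), with the other at 0.50 ± 0.20. The median of the list in MXD 2W was 0.28, beside 0.05 for all bright probes, and in the other comparisons it lay between −0.08 and 0.07. At 1W in MXD, where Hamp2 was lowest against VC, Smad7 was 0.33 ± 0.58 and Bmp2 −0.29 ± 0.06, both not called. Il6 stood there at 1.03 ± 0.11, also not called, with VC above background on 1 of 2 arrays and a normexp value of 0.28.

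Of the iron and heme transporters (25 of 27 genes by name on the array, 45 probes), 4 genes were called down in N-CE 1W, and these 4 and 2 others were called up in MXD 2W. In N-CE 1W 6 probes were down and 1 up, beside 1.49% down and 0.292% up among all probes. In MXD 2W 13 were up and 3 down, beside 4.04% up and 5.82% down. In MXD 1W 1 was up (Steap1, 0.91 ± 0.00), and 0 were called elsewhere. Slc39a8, the metal importer ZIP8, was down on all 3 probes in N-CE 1W (−1.12 ± 0.02 and −1.27 ± 0.03, and at least 1.38-fold lower where N-CE was not above background) and up on all 3 in MXD 2W (1.41 ± 0.58, 1.56 ± 0.04 and 1.19 ± 0.08). Steap1, of the metalloreductase family, stood at −1.18 ± 0.22 and 1.13 ± 0.20 on its brighter probe. Cybrd1, a ferric reductase, was −0.60 ± 0.03 and 1.19 ± 0.19 on the probe called in both. Slc25a37, the mitochondrial importer mitoferrin 1, was −0.79 ± 0.03 and 1.26 ± 0.39.

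Slc39a14, the metal importer ZIP14 (0.80 ± 0.12), and Steap2 (0.96 ± 0.14 and 1.25 ± 0.69) were up in MXD 2W only. The ferroxidase Cp went the other way, at 0.69 ± 0.02 (up) in N-CE 1W and −1.08 ± 0.00 (down) in MXD 2W on 1 of 2 probes, while its other probe was −0.30 ± 0.21 in MXD 2W. Scara5, a ferritin receptor (−1.25 ± 0.04), and Cd163, the haemoglobin scavenger receptor of macrophages (−1.08 ± 0.02), were down in MXD 2W. The list's median was −0.00 in N-CE 1W and 0.24 in MXD 2W. The storage and sensing list (11 genes, 25 probes) and the iron-sulfur cluster list (15 genes, 22 probes) had no call in any comparison. Among their probes well above background in both groups on both arrays, the largest mean ratios were −0.49 ± 0.19 for Ncoa4 (N-CE 3W) and −0.49 ± 0.61 for Nfe2l2 (MXD 2W) in the first, and −0.55 ± 0.14 for Isca1 (MXD 2W) and −0.55 ± 0.49 for Nfu1 (MXD 1W) in the second.

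**Figure D4:**
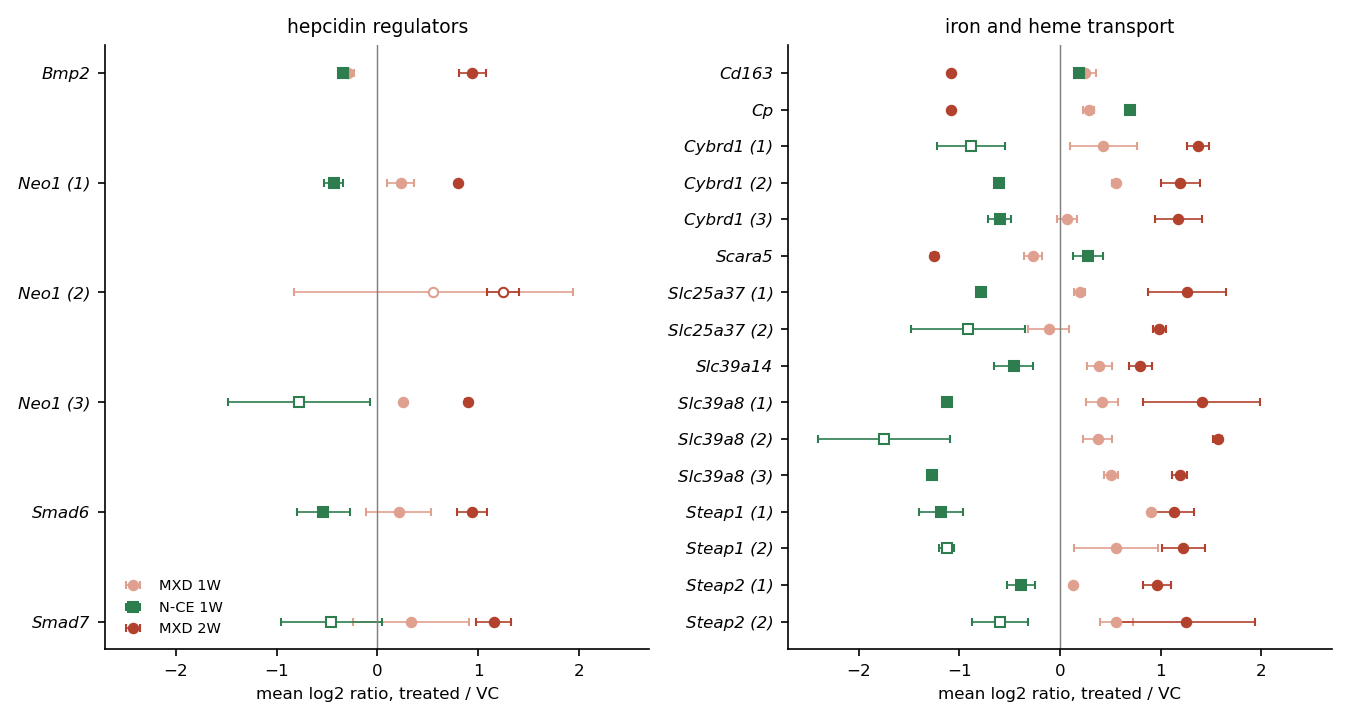
Mean log2 ratio of treated over VC (x axis) with its SD over 2 arrays in MXD 1W, N-CE 1W and MXD 2W, for every probe (y axis, numbered where a gene has several) of the hepcidin regulators (left) and of iron and heme transport (right) that was called in any comparison. Open symbols mark probes not well above background on all channels. The 3 Slc39a8 probes lay below 0 in N-CE 1W and above 0 in MXD 2W, and Cp lay the other way.

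The arrays set the limits of these readings. Between 57.0% and 69.6% of spots were well above background in a channel, none was saturated, and skin markers were present (18 to 20 keratinocyte and dermal fibroblast probes well above background in both groups of each comparison). Across bright probes, the 2 arrays of a comparison correlated at 0.57 in MXD 1W, 0.60 in N-CE 1W, 0.71 in MXD 2W, −0.17 in N-CE 2W, 0.26 in MXD 3W and 0.35 in N-CE 3W. In N-CE 2W, 57 probes passed the P on both arrays in opposite directions and 50 in the same one, so the absence of calls among the 10 genes there says little about them.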

How the data were processed

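Whole back skin RNA (6 mice per pool, 9 pools) was measured on Agilent 4x44K two-colour 60-mer arrays. The authors scanned and extracted them with Agilent Feature Extraction (version 12.0.3.1 per the file headers, 11.0.1.1 per the labels, build mm9) and deposited per-spot intensities with background-subtracted, dye-normalised signals, the log10 ratio of Cy5 over Cy3 with its p-value from the software's error model, and a value table of the same log10 ratios (largest log2 difference 1.37e-06 for bright spots). Dye and channel came from the labels.

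From these, the deposited log10 ratios were turned to treated over VC, converted to log2 and averaged over the dye swap. Spots marked as outliers were left out, and the 245 repeated probes were averaged. The thresholds (P of 0.01, fold 1.5 and 0.75) are those of the study, and asking for P on both arrays in one direction was set here. A second set of ratios came from the deposited mean and background intensities by normexp (offset 50) and loess in limma 3.58.1 (R 4.3.3), and single-channel log2 levels by normexp, loess and Aquantile. A probe well above background on no array of a group got a bound, and one above it on some arrays kept its ratio with that number given. Tables were joined in Python 3.11.15 with pandas 2.3.3 and numpy 2.4.6, and the call step was checked on simulated data. Promoter windows and current names came from RefSeq (GRCm38.p6).

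The genes, gene lists and marker lists were chosen with earlier results of these data known. Named were all 10 genes with every probe, the called genes of each list with its 2 largest ratios, and the 5 gene names nearest to Hamp2, Hfe2 and Tfrc, of which some are not reported here. Those of Hamp, set in the same rule, were left out because 4 of its 6 ratios are bounds. Each group is 1 pool, so no test between mice was possible, and the number of arrays limits the precision. Alternatives were the P criterion, symmetric folds, normexp, a background filter, outlier spots, the deposited value table and single arrays.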

Additional observations from a re-analysis of the deposited data

Results flagged for a closer look

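For 6 probes well above background in both groups on all arrays of a week, both MXD arrays lay on one side of 0 and both N-CE arrays of the same week on the other. Each treatment is 1 pool read on 2 arrays against the same VC pool, and the difference between treatments was not tested. Values are MXD minus N-CE in mean log2 ratio. At 2W the difference was −1.20 for Hamp2 (MXD −0.83, N-CE 0.37). Its N-CE side was 0.65 and 0.09 on the 2 arrays, which correlated at −0.17 across bright probes, and was not called. At 1W it was −0.90 for Hfe2 (−0.83 and 0.07) and 1.37 for Slc40a1 (0.48 and −0.89). At 1W it was −0.25 and −0.24 for the 2 Hfe probes and −0.44 for the Slc11a2 probe of transcript variant 1 (−0.27 and 0.17), none of which was called in either treatment.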

How the results depend on the processing

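No called ratio of the 10 genes changed direction under normexp. Single arrays and changed criteria could not turn one, because a call already asks both arrays for one direction. The deposited value table could not either, because it holds the same ratios. By the mean fold alone, with neither P nor a shared direction asked for, the called probes of the 10 genes were 4 in N-CE 1W (2 as reported), 2 in N-CE 2W (0) and 3 in MXD 3W (0), each count including the Bmp6 probe that was below background throughout. Requiring both groups to be well above background on both arrays left 1 in N-CE 1W and 1 in N-CE 3W (2 each as reported), and 2 in MXD 1W (3) and 5 in MXD 2W (6). The call lost was that of Tfr2 in MXD 2W and of Hamp in the other 3. Using 1 array at a time gave 3 in MXD 1W, 2 to 3 in N-CE 1W, 7 in MXD 2W, 0 to 1 in N-CE 2W, 0 in MXD 3W and 2 in N-CE 3W. Calls on the 4 lists were 30 as reported (21 up, 9 down), 94 by fold alone (35 up, 59 down), 57 to 68 on single arrays, and 41 under normexp by fold alone (16 up, 25 down). The cause of the changed split was not tested.

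Of 74 measured ratios of the 10 genes, normexp moved 12 by more than the SD over arrays and left 62 within it. It kept the sign of 72 of 74 and of all 11 called ones, and brought 50 closer to 0. Symmetric 1.5-fold thresholds, outlier spots kept and the deposited value table changed no member count beyond 1.5 times. Dim probes (Hamp, Tfr2, the third Slc11a2 probe) limit what can be read. No paired analysis was possible because each group is 1 pool.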
